A study of Mus with 5 samples.

Results

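The genes examined were 10 cytokine receptor chains of T cells: Il12rb1 and Il12rb2 (IL-12 receptor), Il18r1 and Il18rap (IL-18 receptor), Ifngr1 and Ifngr2 (IFN-γ receptor), Ifnar1 and Ifnar2 (type I interferon receptor), Il10ra (IL-10 receptor) and Il6st (gp130). A binding peak was taken as belonging to a receptor gene when the authors' peak annotation named that gene among the genes of the peak. In total, 113 of the 27480 peaks in 4 lists met this rule.

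The lists came from chromatin immunoprecipitation sequencing (ChIP-seq) of RARα, the retinoic acid (RA) receptor, and of BATF, an AP-1 family transcription factor. The cells were wild-type mouse spleen CD8 T cells, labelled as naive at the start, that had received IL-2 and antibodies to CD3 and CD28 for 24 h and then IL-2 alone (100 U/ml) for another 24 h. A final hour (1 h) followed in which RA was left out (control) or added at 50 nM. The interleukin written in the labels varies from sample to sample, while the methods name IL-2 for all. The comparison asked where RARα and BATF bound in these cytotoxic T lymphocytes (CTLs) and how a short exposure to RA altered that binding. Each list was called on 2 pooled sequencing files against the same single IgG file, and it is not given whether the pooled files were separate cultures or whether the IgG cells had received RA. There was therefore 1 list per factor and condition, no replicate spread and no test. Intervals below cover counting error only, of fragments for ratios and of peaks, taken as independent, for percentages. The RARα pools had 22655611 (control) and 22475060 (RA) fragments. The BATF pools had 23110180 (control) and 16424269 (RA), so BATF with RA was sequenced to 71.1% of the depth of its control. Peak lists hold no expression values, so the identity of the cells could not be checked against marker genes.

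IL-12 and IL-18 are the cytokines that drive effector CTLs towards IFN-γ production. The IL-12 receptor chains signal through JAK2, TYK2 and STAT4, and the IL-18 receptor chains through MyD88 and IRAK kinases. The interferon receptors, IL-10 receptor and gp130 all signal through JAK kinases and STAT proteins, and gp130 is shared by IL-6, IL-27 and LIF receptors. RARα with RA activates genes at RA response elements, and RARα can also restrain AP-1 proteins, which is why its position relative to BATF was of interest.

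All 10 receptor genes had BATF peaks in both conditions, whereas RARα peaks were listed at 6 genes in control CTLs and at 1 gene with RA. In control CTLs, RARα had 12 peaks, assigned to Il12rb2, Il18r1, Ifngr1, Ifngr2, Ifnar1 and Ifnar2, and none was assigned to Il12rb1, Il18rap, Il10ra or Il6st. With RA, both RARα peaks were at Ifngr1. Among 21896 protein-coding genes, 6.86% had a RARα control peak, 3.06% a RARα peak with RA, 46.2% a BATF control peak and 36.4% a BATF peak with RA. BATF had 63 peaks at the receptors in control CTLs and 36 with RA, or 57.1% as many, against 62.6% over all BATF peaks. The same ratio for RARα was 16.7% at the receptors, on 12 and 2 peaks, and 50.9% over all RARα peaks.

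**Figure D1:**
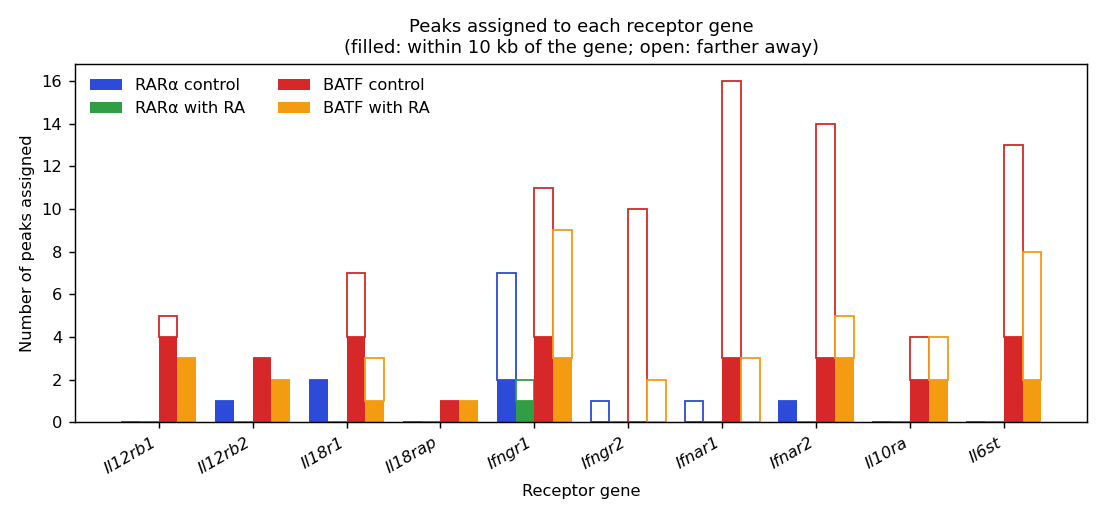
Number of peaks (vertical axis) assigned to each of the 10 receptor genes (horizontal axis) in the 4 peak lists, with peaks within 10 kb of the gene filled and more distant ones open. RARα peaks in control CTLs were most numerous at Ifngr1 (7), and all 16 BATF control peaks of Ifnar1 except 3 lay farther than 10 kb from the gene.

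The receptor BATF peaks were mostly distal. Of the 63 BATF control peaks, 39 were classed as intergenic, 15 as promoter, 9 as intron and 0 as exon, and of the 36 with RA, 23 were intergenic and 9 promoter. An intergenic BATF control peak named 3.86 genes on average and a promoter peak 1.21, so choosing peaks by the genes they name favours intergenic ones for any gene. Shares were therefore taken over pairs of a peak and a gene it names. In the BATF control list, 60 of 84 receptor pairs (71.4%) were intergenic and 15 (17.9%) promoter, against 42.6% and 43.1% of all pairs. The 13 BATF control peaks that name more than 1 receptor, all intergenic and near Ifnar2, Ifnar1 and Ifngr2, each enter these receptor pairs more than once. The receptor shares in control therefore lean on that cluster, and shares without it were not computed. With RA, 27 of 40 (67.5%) were intergenic and 9 (22.5%) promoter, against 38.2% and 49.4%. RARα had 1 promoter-class receptor peak in control, at Il18r1, among 13 pairs (12.3% of all RARα control pairs were of this class), and none with RA (6.21% of all). Of the 13 RARα control pairs, 8 (61.5%) were intergenic, against 66.7% of all RARα control pairs. The annotation reached up to 97097 bp from a receptor gene, and a distal peak could name several genes: 13 BATF control peaks named more than 1 of the 10 receptors, and for 44 of the 63 the nearest protein-coding gene was a receptor. For all 12 RARα control peaks and both RARα peaks with RA, the nearest protein-coding gene was a receptor. Median fold enrichment over the local IgG level was 5.34 for the receptor BATF control peaks against 5.40 for all, and 3.37 for the receptor RARα control peaks against 3.09 for all. The RARα peaks were thin, with 11 to 39 fragments under the summit (median 15.5), compared with 15 to 204 (median 29) for BATF control. The RARα list was called at a looser cutoff (p of 0.001) than BATF (1e-05), which admits thinner peaks.

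Il12rb1, the chain shared by the IL-12 and IL-23 receptors, carried strong BATF binding and no RARα peak. Its promoter peak at chr8:70807989-70809484 (mm10; intron 1 at the summit) had 122 fragments and 24.3-fold enrichment in control CTLs and 81 fragments and 21.1-fold with RA. After scaling to the pool sizes, the ratio of RA to control summit fragments was 0.934 (95% interval 0.697 to 1.25), an interval that spans 1. Another promoter peak, 846 bp from the gene, had 46 and 26 fragments (6.63-fold and 6.96-fold). A weaker one in intron 2, chr8:70810082-70810637, had 20 fragments and 2.96-fold enrichment in control and no overlapping peak with RA.

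Il12rb2, the chain that is induced in effector cells and binds STAT4, showed a different arrangement. RARα was listed in intron 1 at chr6:67367113-67367379 in control CTLs, with 14 fragments and 3.86-fold enrichment, and not with RA, where the nearest RARα peak was 559869 bp away. BATF was listed at this position with RA alone: the BATF peak chr6:67367143-67367425 had 27 fragments and 8.86-fold enrichment, and the nearest BATF control peak was 8412 bp away. In the same gene, both BATF control peaks of the promoter class, chr6:67375837-67376478 (35 fragments, 3.56-fold) and chr6:67378168-67378509 (22 fragments, 4.55-fold), had no BATF peak with RA within 5 kb. The strongest BATF control peak of the gene, in intron 7, was present in both conditions with 64 and 42 fragments (6.42-fold and 5.75-fold; ratio 0.923, 0.610 to 1.38). Thus at Il12rb2 the promoter sites were listed in control alone, the intron 1 site with RA alone, and the intron 7 site in both. Over the whole BATF list with RA, 0.333% of peaks overlapped a RARα control peak and no BATF control peak, as the intron 1 site did.

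Il18r1, the ligand-binding IL-18 receptor chain, had 2 RARα control peaks and both coincided with BATF. At its start, RARα (chr1:40465550-40465807, 12 fragments, 3.35-fold) overlapped a BATF promoter peak that had 28 fragments (7.39-fold) in control and 15 fragments (5.06-fold) with RA, a ratio of 0.754 (0.374 to 1.46). In intron 3, RARα (chr1:40475819-40476260, 11 fragments, 3.06-fold) overlapped a BATF control peak of 21 fragments (5.44-fold), and neither factor had a peak there with RA; the nearest BATF peak with RA was 9828 bp away. A further BATF control peak in intron 4 (19 fragments, 4.94-fold) also had no BATF peak with RA within 5 kb. The strongest BATF peak named with Il18r1 was intergenic, 78974 bp from the gene, and was also assigned to Il1rl2, Il1r1 and Il1rl1. It had 85 fragments (10.6-fold) in control and 52 (8.78-fold) with RA, with a ratio of 0.861 (0.598 to 1.23). Il18rap, the accessory chain next to Il18r1, had a single BATF peak in each condition and no RARα peak. Its BATF peak at chr1:40515090-40516674 covered the gene start and had 73 fragments (12.2-fold) in control and 36 (9.54-fold) with RA, with a ratio of 0.694 (0.452 to 1.05).

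Ifngr1, the ligand-binding chain of the IFN-γ receptor, carried 7 of the 12 RARα control peaks. No other protein-coding gene had as many RARα control peaks; the next were the neighbouring Gimap1, Gimap3, Gimap5, Gimap6 and Gimap7 genes with 6 each. This rank depended on weak peaks: 4 of the 7 passed the stricter cutoff of p of at most 1e-05 that was used for BATF, and at that cutoff 6 genes had more. The 7 peaks spanned 103862 bp, with 5 upstream of the gene and 2 inside it, and 3 of the upstream peaks lay within a long noncoding RNA gene, Gm33104. At Ifngr1, 5 of the 7 were overlapped by a BATF control peak (53.4% of all RARα control peaks were) and 5 by a BATF peak with RA (42.5% of all).

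The strongest of these, chr10:19504540-19505157, lay 86792 bp upstream of Ifngr1 and was the 1 receptor site listed in all 4 lists. RARα had 36 fragments (7.44-fold) in control and 28 (5.87-fold) with RA, a ratio of 0.784 (0.461 to 1.32). BATF had 21 fragments (3.62-fold) and 19 (5.72-fold) there, with a ratio of 1.27 (0.647 to 2.49). A neighbouring site, chr10:19506102-19506340, had the same number of RARα fragments (36) but 3.39-fold enrichment, because the IgG level under its summit was 9.93 fragments compared with 3.97. BATF at that neighbour had 74 fragments (7.41-fold) in control and 43 (5.37-fold) with RA.

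Inside Ifngr1, RARα and BATF peaks lay at a pair of adjacent intronic positions. At chr10:19597855-19598376, RARα had 16 fragments (2.44-fold) in control and 26 (6.76-fold) in the overlapping peak with RA, a ratio of 1.64 (0.846 to 3.27) over IgG levels of 5.96 and 3.0 fragments. BATF had a control peak of 24 fragments (6.33-fold) there and none with RA overlapping it. At chr10:19596847-19597216, RARα had 12 fragments (3.13-fold) in control, and BATF was listed with RA alone (18 fragments, 5.88-fold). That BATF peak with RA lay 691 bp from the BATF control peak of 24 fragments at the adjacent position. Taken as a pair within 5 kb, the 2 BATF peaks had a ratio of 1.06 (0.54 to 2.03), so the contrast between the 2 positions rests on the overlap rule. The other RARα control peaks of Ifngr1 were at chr10:19494515-19494852 (20 fragments, 3.52-fold, no overlapping peak in another list), chr10:19529806-19530175 (19 fragments, 3.35-fold) and chr10:19577834-19578115 (13 fragments, 2.37-fold). BATF at chr10:19529815-19530214 had 26 fragments in control and 25 with RA, and BATF at chr10:19577556-19578782 had 35 and 28, so the shallower RA pool held nearly as many fragments at both. Their ratios of 1.35 (0.749 to 2.44) and 1.13 (0.660 to 1.90) spanned 1. At the Ifngr1 start, BATF control peaks at chr10:19591932-19592368 (37 fragments, 4.58-fold) and chr10:19592653-19593357 (23 fragments, 4.90-fold) had no overlapping peak with RA. The most enriched peak of the promoter class at this gene, chr10:19593733-19595104, had 24 fragments (5.93-fold) in control and an overlapping peak of 15 fragments (4.13-fold) with RA, a ratio of 0.879 (0.429 to 1.75). One BATF peak with RA, chr10:19584126-19584384 (17 fragments, 3.91-fold), had no BATF control peak within 5 kb.

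**Figure D2:**
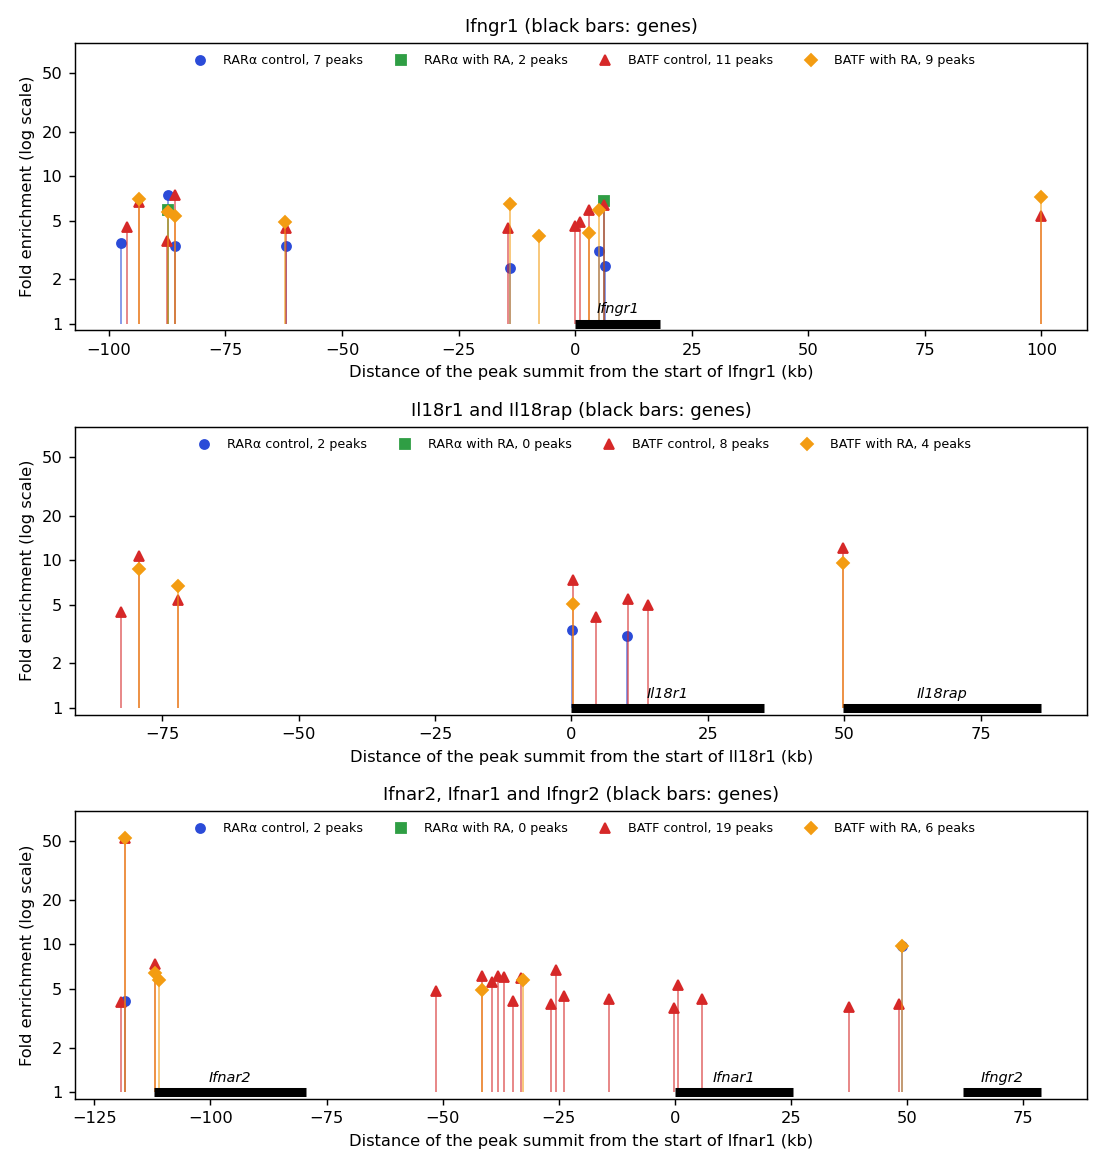
Fold enrichment (log axis) of each peak assigned to Ifngr1, to Il18r1 and Il18rap, and to Ifnar2, Ifnar1 and Ifngr2, against the distance of its summit from the start of Ifngr1, Il18r1 or Ifnar1 (kb); stems are peaks, symbols and colours are the 4 lists, and black bars are the genes. The 7 RARα control peaks of Ifngr1 spread from the distal upstream region into the gene, and the BATF peaks of 52.4-fold and 52.9-fold stand upstream of Ifnar2.

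Ifnar2, Ifnar1 and Ifngr2 lie side by side on chromosome 16 with Il10rb, the second chain of the IL-10 receptor, and share most of their assigned peaks. The strongest receptor peak in either BATF list lay 5356 bp upstream of Ifnar2, the high-affinity chain for type I interferon, at chr16:91366306-91367427. BATF had 204 fragments (52.4-fold) in control and 159 (52.9-fold) with RA, and 7 control and 5 RA peaks in the whole lists, these included, were at least as enriched. Their ratio of 1.10 (0.886 to 1.36) spanned 1. RARα control binding at the same place was weak, at 15 fragments (4.12-fold), with its summit 2 bp from that of BATF, and there was no RARα peak with RA. The Ifnar2 promoter itself had a BATF control peak of 36 fragments (7.31-fold) at chr16:91372453-91375014, which 2 separate peaks overlapped with RA (24 fragments, 6.45-fold, with its summit 27 bp from that of control and a ratio of 0.938, 0.535 to 1.62, and 18 fragments, 5.70-fold).

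The strongest RARα control peak at any of the receptors was intergenic, 12646 bp from Ifngr2 and assigned to Ifnar1 as well, at chr16:91533087-91534413. It had 39 fragments (9.73-fold), and 18 RARα control peaks in the whole list, itself included, were at least as enriched. The nearest RARα peak with RA was 3016766 bp away. BATF was present there in both conditions, with 3.95-fold enrichment in control and 9.69-fold with RA, although the summit held 39 and 30 fragments, or 1.69 and 1.83 for every 1000000 fragments of the pool (ratio 1.08, 0.649 to 1.79). The BATF summits in the 2 conditions were at different positions. The IgG level under them was 9.0 and 2.2 fragments on the scale of each pool. For every 1000000 fragments of the pool it was 0.394 and 0.134. The higher fold enrichment with RA thus went with a lower IgG level and with nearly equal depth-scaled fragments. This peak was the 1 RARα peak of Ifngr2, the signalling chain of the IFN-γ receptor, which had no peak of either factor within 10 kb.

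Ifnar1, which pairs with Ifnar2, had 16 BATF control peaks and 3 with RA (over all genes, the BATF list with RA was 62.6% as long as that of control). Most of the 16 nonetheless had a BATF peak with RA within 5 kb, whatever gene it names, as did 69.9% of all BATF control peaks. Counting every BATF peak from 10 kb before Ifnar2 to 10 kb after Ifngr2, whatever gene it names, gave 22 in control and 7 with RA. Among them, the promoter of the noncoding gene A930006K02Rik, 18294 bp from Ifnar1, had a BATF peak assigned to no receptor, with 60 fragments (15.6-fold) in control and 44 (14.9-fold) with RA. Of the 16, 13 were shared with Ifnar2 or Ifngr2, and 3 were at the gene alone. These 3, the promoter peaks chr16:91484647-91485037 (33 fragments, 3.73-fold) and chr16:91485315-91486273 (26 fragments, 5.34-fold) and the intron 2 peak chr16:91490807-91491184 (19 fragments, 4.30-fold), had no BATF peak with RA nearby, the closest being 18504 bp or more away. The most enriched BATF control peak named with Ifnar1 and Ifngr2, chr16:91459400-91460118, had 27 fragments (6.72-fold) and no overlapping peak with RA. The nearest BATF peak with RA, at the A930006K02Rik promoter, was 4393 bp away.

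Il10ra and Il6st had BATF binding and no RARα peak. At Il10ra, the ligand-binding IL-10 receptor chain, all 4 BATF control peaks had overlapping peaks with RA (54.4% of all BATF control peaks did). The strongest, chr9:45251527-45252265, lay 1572 bp beyond the end of the gene and named 7 genes. Its nearest protein-coding gene was BC049352, 157 bp away. The peak had 45 fragments (7.57-fold) in control and 32 (10.4-fold) with RA. Scaled, this was 1.95 for every 1000000 fragments of the pool in both conditions (ratio 1.00, 0.615 to 1.61). Here too, the higher fold enrichment with RA went with a lower IgG level under the summit. At the Il10ra start, the BATF peak chr9:45267248-45269182 had 29 fragments in both conditions (3.29-fold and 4.44-fold; ratio 1.41, 0.811 to 2.44). At Il6st, 13 BATF control peaks and 8 with RA were listed, most of them in a distal block upstream of the gene. The strongest, chr13:112446950-112447739, was 16331 bp away and had 91 fragments (15.1-fold) in control and 63 (13.9-fold) with RA, with a ratio of 0.974 (0.695 to 1.36). Another at 66974 bp had 96 fragments (14.2-fold) and 50 (9.87-fold), with a ratio of 0.733 (0.510 to 1.04). The peak over the Il6st start, chr13:112464054-112466973, had 36 fragments (8.08-fold) in control, and 2 separate peaks overlapped it with RA. The one whose summit was 5 bp from that of control had 17 fragments (5.22-fold; ratio 0.664, 0.350 to 1.21), and the other 15 fragments (3.48-fold) at a summit 950 bp away. One BATF peak with RA near Il6st, chr13:112443248-112443531 (24 fragments, 8.26-fold), had no BATF control peak overlapping it; the nearest was 3265 bp away.

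Co-binding was then counted over all the receptor sites. Of the 12 RARα control peaks, 11 (91.7%, Wilson 95% interval 64.6 to 98.5) had a BATF control peak within 5 kb, against 61.9% of all RARα control peaks, and 9 (75%, 46.8 to 91.1) were overlapped by one, against 53.4%. The 9 belonged to 5 of the 10 genes (Il18r1, Ifngr1, Ifnar2, Ifngr2 and Ifnar1), and 4.06% of protein-coding genes had such an overlap. Il12rb2, Il18r1 and Ifngr1, which hold 10 of the 12 peaks, are genes already known from these data for binding by both factors, so the share is not independent evidence of co-binding. With RA, 2 of the 12 were still overlapped by a RARα peak (16.7%, 4.70 to 44.8; 8.45% of all), and 4 had one within 5 kb (33.3%, 13.8 to 60.9; 10.2% of all). By contrast, 9 of the 12 were overlapped by a BATF peak with RA (42.5% of all). In 8 of the 12 (66.7%, 39.1 to 86.2), a BATF peak and no RARα peak was listed with RA, the state of 37.5% of all RARα control peaks. At the 7 sites with BATF in both conditions, BATF fold enrichment was higher with RA at 5, against 29% of all overlapping BATF pairs at RARα control peaks. All 7 ratios of summit fragments had intervals that spanned 1. The 12 sites are not independent, since 7 belong to Ifngr1. Of the 12, 7 passed p of at most 1e-05 (44.3% of all RARα control peaks) and 7 passed a q of at most 0.05 (34.9% of all). Conversely, 9 of the 63 BATF control peaks (14.3%, 7.70 to 25) were overlapped by a RARα control peak, against 3.92% of all BATF control peaks, and 5 of those 9 were at Ifngr1.

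**Figure D3:**
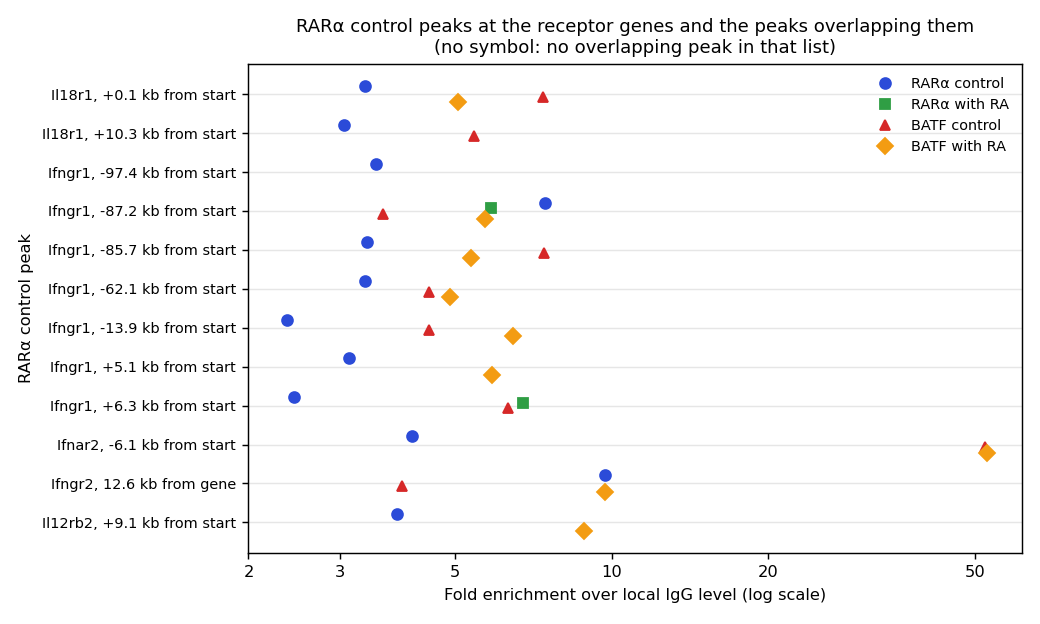
Fold enrichment over the local IgG level (log axis) of the 12 RARα control peaks at the receptor genes (rows, named by the closest gene and the distance of the summit) and of the peaks that overlap each in the other 3 lists; a missing symbol means no overlapping peak. A RARα symbol with RA appears in 2 rows, both at Ifngr1, and a BATF symbol with RA in 9.

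BATF itself was then followed from control to RA. A BATF peak with RA lay within 5 kb of 48 of the 63 receptor BATF control peaks (76.2%, 64.4 to 85.0), against 69.9% of all, and overlapped 29 of them (46.0%, 34.3 to 58.2), against 54.4% of all. Both intervals contain the share over all BATF control peaks. They take the 63 peaks as independent, although 13 were at Il6st, 11 at Ifngr1 and 19 in the chromosome 16 span. No conclusion was therefore drawn from these intervals. The 15 peaks with none within 5 kb included the 3 peaks of the Ifnar1 gene, both Il12rb2 promoter peaks and the peaks in introns 3 and 4 of Il18r1. Scaling the counts to the depth of the RA pool put 1 of the 15 below the BATF cutoff. Over the whole BATF control list, it put 348 of 4764 such peaks below it. The scaled counts carry no counting error, so further peaks near the cutoff could have been missed at the RA depth. Of the receptor peaks that still passed, 46 of 60 (76.7%) had a BATF peak with RA within 5 kb, against 70.9% of all. In 24 of the 48 pairs the fold enrichment under RA was below that in control (50.0%, 36.4 to 63.6; 66.9% of all pairs), but these pairs drew on 33 distinct RA peaks. With each RA peak used once, paired with the control peak of nearest midpoint, the count was 19 of 32 (59.4%), since 1 of the 33 lay nearest to a control peak assigned to none of the receptors. No share over the whole list is given under this rule, so 59.4% has no background value beside it. Among overlapping pairs the fold enrichment with RA was lower in 18 of 29 (62.1%, 44.0 to 77.3), against 75.5% of all. In the 29 overlapping pairs, the median ratio of depth-scaled summit fragments was 0.923, compared with 0.838 over all 8605 such pairs. None of the 29 had an interval that excluded 1, whereas 8.66% of all pairs had an interval below 1 and 0.325% above it. No change in BATF beyond counting error was therefore detected at any single one of these overlapping sites, and the intervals ranged from narrow at the Ifnar2 site (0.886 to 1.36) to wide at thin ones such as the Il18r1 promoter (0.374 to 1.46). Where 2 RA peaks overlapped 1 control peak (at 2 sites of Il6st and at the Ifnar2 promoter), the RA peak of nearest midpoint was used, and taking the one of nearest summit gave ratios of 0.745, 0.664 and 0.938, with intervals that also spanned 1. Among the 48 pairs within 5 kb, 7 had an interval above 1 (14.6%, against 5.63% of all such pairs) and 0 below it. In none of the 7 did the control and RA peaks overlap, so each set a control peak against a different, neighbouring RA peak.

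**Figure D4:**
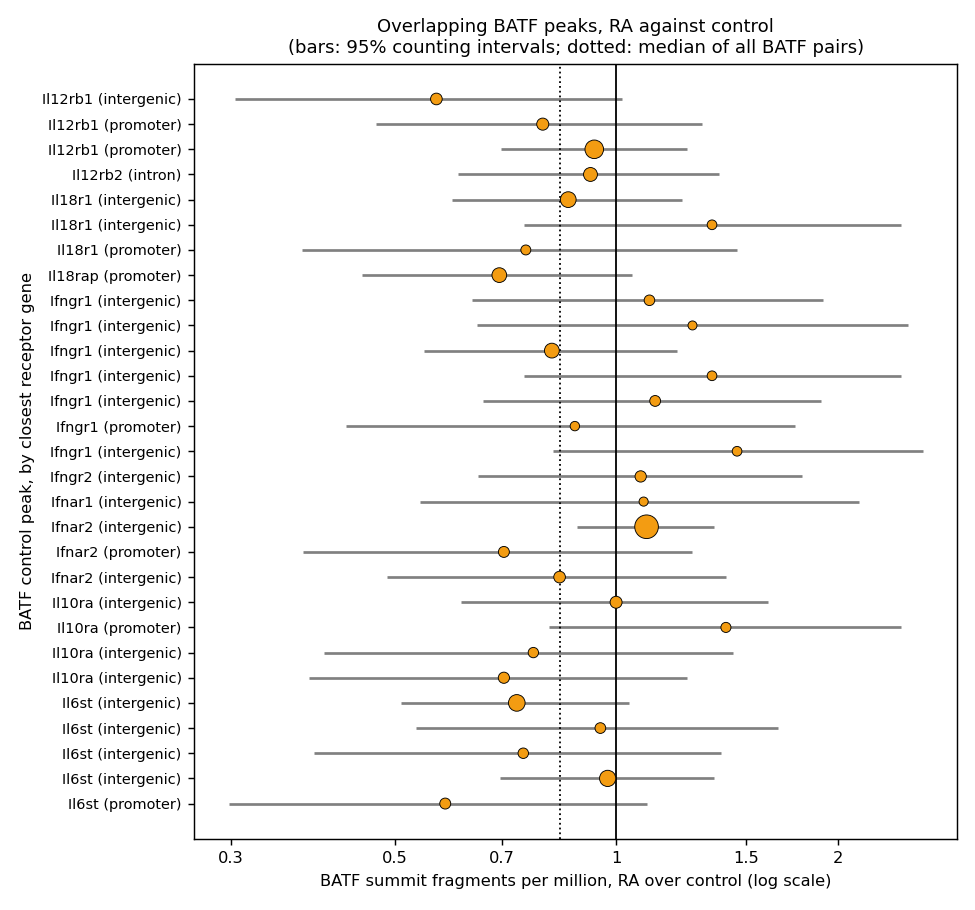
Ratio of BATF summit fragments, scaled to the size of each pool, RA over control (log axis), at the 29 overlapping pairs of receptor BATF peaks (rows, by closest gene and class); bars are 95% counting intervals, larger circles hold more control fragments, the solid line is 1 and the dotted line the median of all pairs (0.838). All 29 bars cross 1, and the narrowest belongs to the site upstream of Ifnar2.

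Joining overlapping peaks gave 68 receptor sites among 17394 in all. BATF was listed in control alone at 32 (47.1%, against 40.6% of all sites) and in both conditions, without RARα, at 22 (32.4%, against 46.4%). RARα in control with BATF in both conditions accounted for 6 sites (8.82%, against 2.48%). RARα in control with BATF under RA alone accounted for 2 (Il12rb2 intron 1 and Ifngr1; 2.94%, against 0.132%), BATF under RA alone for 2 (Ifngr1 and Il6st; 2.94%, against 3.45%), and the other 4 patterns for 1 site each. Of those, RARα without BATF was found at the most distal Ifngr1 site, chr10:19494515-19494852. The Ifngr1 site with RARα in control and BATF under RA alone lay 691 bp from a BATF control peak, so its pattern rests on the overlap rule.

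The other genes of these pathways, a list of 42, were read from the same peak lists. RARα control peaks were assigned to 11 of the 42 (6.86% of all protein-coding genes had one) and RARα peaks with RA to 2 (3.06%). BATF peaks were assigned to 32 in control (46.2%) and 29 with RA (36.4%). Some of these are receptor peaks counted again. Il1r1, Il1rl1 and Il1rl2 entered through intergenic BATF peaks that also name Il18r1. The strongest BATF peak of Il10rb is the one upstream of Ifnar2. Among 11 ligands, 3 had a RARα control peak and 7 a BATF control peak. Ifng, the effector cytokine induced by IL-12 and IL-18, had 1 RARα control peak (5.05-fold) and 6 BATF control peaks, with a highest BATF enrichment of 13.4-fold in control and 13.7-fold with RA. Il10 had no RARα peak and a highest BATF enrichment of 41.4-fold in control and 40.7-fold with RA. Lif, a gp130 ligand, had 4 RARα control peaks and 1 with RA. Among 12 partner or related receptor chains, 2 had a RARα control peak. One was Il10rb, whose intronic RARα peak chr16:91413225-91413494 (23 fragments, 4.41-fold) overlapped a BATF control peak of 25 fragments (4.83-fold), and the other was Il1rap (3.86-fold), which had no BATF peak.

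Downstream of the receptors, all 8 kinases and adaptors had BATF control peaks (46.2% of all protein-coding genes did) and 3 had a RARα control peak (6.86% of all): Jak1 (2.85-fold), Jak2 (4.03-fold) and Tyk2 (4.64-fold), the kinases that bind the IL-12, interferon, IL-10 and gp130 receptor chains. Jak1 had 14 BATF control peaks and 4 with RA, within a group total of 28 and 13 for the 8 genes. The whole BATF list with RA was 62.6% as long as that of control. Of 5 transcription factors, Stat4, which relays IL-12 signals, was the 1 with RARα control peaks (2 peaks, highest 3.68-fold), and all 5 had BATF control peaks, the most enriched at Stat3 (15.5-fold). All 6 inhibitors had BATF control peaks and 2 had a RARα control peak, among them Socs1 (RARα 2.87-fold; BATF 14.5-fold in control and 11.8-fold with RA). No RARα peak with RA was assigned to any of these inhibitors, transcription factors or partner chains, but 3.06% of all protein-coding genes had one, so few were to be found. The 2 genes of the list with such a peak were the ligand Lif and the kinase Irak4 (2.53-fold).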

How the data were processed

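ChIP-seq was read from 4 deposited peak lists. Per the methods and the file headers, the authors aligned 151 bp paired-end reads with Bowtie2 to mm10, discarded duplicate reads and used MACS 2.2.7.1 for peak calling on 2 pooled files per list against 1 IgG file, at p of 0.001 for RARα and 1e-05 for BATF (effective genome size 1870000000 bp), with HOMER among the tools named in the submitters' processing notes. The authors deposited, per peak, the summit pileup (signal, in fragments), the fold enrichment (a ratio of pileup to the local IgG level, each plus 1), and p and q values as −log10. In the BATF control list 1 fragment counts as 0.9875, and fragments were recovered by dividing by it. Because 1 IgG file served all lists, their folds share its noise.

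Members were peaks whose gene field names 1 of the 10 receptors; the members and lists were chosen with earlier results of these data known. All RARα peaks were named, and for BATF the most enriched control peak of each gene, those within 1 kb of its start, those overlapping RARα peaks and those with RA lacking a control peak within 5 kb; several promoter-class and intron peaks, weaker distal peaks and the Il6st peak at chr13:112443248-112443531 were added after their values were seen, as were the class shares over pairs of a peak and a gene and the counts over the chromosome 16 span. Peaks were paired within 5 kb, as the authors did, or by an overlap of 1 bp; percentages carry Wilson intervals and ratios of fragments exact conditional intervals, at 95%. Gene spans came from RefSeq GRCm38.p6, and the side of the gene start from promoter-class peaks. Scripts were tested on simulated peaks (Python 3.11.15, pandas 2.3.3, numpy 2.4.6, scipy 1.17.1, matplotlib 3.10.9). Motifs in the peaks were not analysed here.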

Additional observations from a re-analysis of the deposited data

Results flagged for a closer look

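At 8 of the 12 RARα control sites, RARα and BATF moved in opposite directions between control and RA in their listed fold enrichment, counting an unlisted peak as lower; by the same rule 167 of all 1172 RARα control peaks (14.2%) did. The direction of RARα is nearly fixed by the choice of RARα control peaks, since 91.6% of all of them had no overlapping RARα peak with RA, and the count rests mainly on BATF. None of these differences was tested, since each condition had 1 list, and the fragment ratios that could be formed all had intervals spanning 1. At Ifngr1, BATF with RA reached 5.72-fold (chr10:19504540-19505157), 4.89-fold (chr10:19529806-19530175), 6.45-fold (chr10:19577834-19578115) and 5.88-fold (chr10:19596847-19597216), each above its control level or unlisted in control, while RARα was lower or unlisted with RA. At the first and the third of these sites the IgG level under the BATF summit was also lower with RA (5 and 2.5 fragments, and 7 and 3.5), and the BATF fragment ratios were 1.27 and 1.13. The reverse held at chr10:19597855-19598376, where RARα was 2.44-fold in control and 6.76-fold with RA (16 and 26 fragments over IgG levels of 5.96 and 3.0) and BATF, 6.33-fold in control, had no overlapping peak with RA. The BATF peak with RA nearest to that control peak was 691 bp away and is the 5.88-fold one above, so both sites are counted under the overlap rule. BATF with RA was 52.9-fold upstream of Ifnar2, which is nearly its control value of 52.4-fold, 9.69-fold near Ifngr2 and 8.86-fold in intron 1 of Il12rb2, and none of these places had a RARα peak with RA.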

How the results depend on the processing

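No paired analysis was possible because each condition had 1 peak list called on pooled files. Of 64 alternative values, 50 moved by no more than 1.5 times (counts) or stayed within the counting interval (percentages), and 14 did not. Counting peaks within 10 kb of the RefSeq gene instead of by name gave 7 RARα control peaks (from 12), 1 RARα peak with RA (from 2), 31 BATF control peaks (from 63) and 17 BATF peaks with RA (from 36). A q of at most 0.05 left 7 RARα control peaks, p of at most 1e-05 left 7, and a fold enrichment of at least 5, applied to every list, left 2, with 32 BATF control peaks and 24 BATF peaks with RA. The share of receptor BATF control peaks with a BATF peak nearby with RA (76.2% within 5 kb) was 46.0% by overlap, 52.4% within 1 kb and 87.3% within 10 kb. The share of RARα control peaks with BATF nearby (91.7%) was 50.0% (1 of 2) at a fold of at least 5, where the BATF peaks that overlap both RARα sites (3.62-fold and 3.95-fold) are themselves removed, and 100.0% within 10 kb. The share of BATF pairs with lower fold enrichment with RA (50.0%) was 66.7% at a fold of at least 5. Alternatives chosen after seeing the data were the scaling to the RA depth (76.7%, against 70.9% of all) and the use of each RA peak once (59.4%). The receptor RARα control peaks held 11 to 39 fragments, which limits the precision of each. Without replicates, a difference between control and RA cannot be told apart from a difference between 2 libraries.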
